A study of Mus musculus with 15 samples.

Results

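The liver transcripts of 10 coagulation genes were measured in mice with and without estrogen receptor alpha. They were the rows of the count table with the symbols *F2*, *F5*, *F7*, *F9*, *F10*, *F11*, *Fgb*, *Proc*, *Pros1* and *Serpinc1*, 10 of 55573 genes in the table and 10 of the 17655 genes that passed the filter on low counts. The study asked how loss of *Esr1*, which encodes estrogen receptor alpha, changed the sex-biased liver transcriptome. Total RNA from the livers of 8-week-old mice was depleted of ribosomal RNA and sequenced, with a separate library for each mouse. The libraries came from 3 wild type females (FWT), 3 wild type males (MWT), 5 ESR1KO females (FKO) and 4 ESR1KO males (MKO). All mice were of the strain B6N(Cg)-Esr1tm4.2Ksk/J. ESR1KO mice lacked exon 3 of *Esr1* in every tissue and throughout life and had raised testosterone in both sexes, whereas WT mice were their littermates. The deletion was thus neither specific to the liver nor separable from the changed hormone levels.

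Coagulation is a chain of protease steps whose components are mostly made by hepatocytes and secreted into the blood. Tissue factor with factor VII activates factor X, the contact pathway acts through factors XI and IX, and factor X with its cofactor factor V turns prothrombin into thrombin, which cuts fibrinogen into fibrin. Antithrombin inhibits these proteases, and protein C with protein S inactivates the cofactors. Prothrombin, factors VII, IX and X, protein C and protein S need vitamin K to mature.

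Promoter sequences are shown for *F7* and *F11*, the members with the clearest differences between groups, for *F10*, whose gene begins 1499 bp beyond the end of *F7*, and for *Fgb*. Each runs 5′ to 3′ on the strand of the gene, from 250 bases before to 50 bases after the start site in RefSeq (GRCm38.p6). Capitals mark matches on either strand to TTCNNNGAA, the palindrome bound by STAT proteins, to AGGTCA, an element bound by nuclear receptors, to CAAAGTCCA, an element bound by HNF4, and to CTGGGA, an element of interleukin-6 responsive genes.
*F7*, chr8:13025784-13026083, plus strand: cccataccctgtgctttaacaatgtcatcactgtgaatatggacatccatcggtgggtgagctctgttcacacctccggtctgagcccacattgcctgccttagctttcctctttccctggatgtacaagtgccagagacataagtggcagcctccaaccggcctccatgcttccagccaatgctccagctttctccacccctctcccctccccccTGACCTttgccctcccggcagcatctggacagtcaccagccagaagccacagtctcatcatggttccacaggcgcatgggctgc
*F10*, chr8:13037058-13037357, plus strand: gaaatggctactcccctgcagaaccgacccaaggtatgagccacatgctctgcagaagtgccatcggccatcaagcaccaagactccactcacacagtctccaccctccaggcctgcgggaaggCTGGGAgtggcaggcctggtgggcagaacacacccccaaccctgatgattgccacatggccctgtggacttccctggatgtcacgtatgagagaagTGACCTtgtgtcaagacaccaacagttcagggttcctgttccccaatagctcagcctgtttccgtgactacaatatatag
*F11*, chr8:45261982-45262281, minus strand: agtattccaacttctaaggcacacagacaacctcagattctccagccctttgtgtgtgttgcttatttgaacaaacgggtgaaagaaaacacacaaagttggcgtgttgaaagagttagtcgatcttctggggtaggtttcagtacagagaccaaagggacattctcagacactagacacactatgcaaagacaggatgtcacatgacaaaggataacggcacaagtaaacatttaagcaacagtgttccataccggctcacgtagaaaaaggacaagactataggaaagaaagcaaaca
*Fgb*, chr3:83049814-83050113, minus strand: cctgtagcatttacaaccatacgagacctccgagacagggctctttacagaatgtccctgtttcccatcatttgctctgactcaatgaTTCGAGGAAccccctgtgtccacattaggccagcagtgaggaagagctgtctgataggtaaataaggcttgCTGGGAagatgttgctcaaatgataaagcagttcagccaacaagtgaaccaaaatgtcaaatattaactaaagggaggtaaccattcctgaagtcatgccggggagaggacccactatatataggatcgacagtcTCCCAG
Of 32851 promoters of the same length, 8.3% held TTCNNNGAA, 16.3% held AGGTCA, 0.475% held CAAAGTCCA and 31.8% held CTGGGA. The *F7* and *F10* promoters each held AGGTCA on the reverse strand, with its match beginning 34 and 30 bases before the start site. The *F11* window held no match to any of these letters. The *Fgb* window held TTCNNNGAA beginning 162 bases before the start site, and CTGGGA beginning 91 bases before it and 45 bases into the transcript. Promoters were found for 9 of the 10 members, all but *Proc*. Of those not shown, *F2*, *F5* and *F9* also held AGGTCA. *F9* and *Pros1* held TTCNNNGAA, *F2*, *F9* and *Pros1* held CTGGGA, and *Serpinc1* held no match. The matches were thus not particular to the members with differences between groups. A match describes the letters only, and binding was not measured.

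Library totals ran from 27799061 to 78624766 counts, and the 10 members together took 0.796% to 1.19% of them. *Esr1* itself lay at 74.7 to 88.2 CPM, the count scaled to library size, in WT females and 25.0 to 52.0 CPM in WT males, against 9.67 to 19.7 CPM in ESR1KO females and 8.22 to 16.1 CPM in ESR1KO males, so every ESR1KO library lay below every WT library. ESR1KO females 1 and 2 stood apart from ESR1KO females 3 to 5. Mitochondrial genes took 11.2% and 7.40% of their counts, against 1.97% to 5.10% in the other 3. Their root-mean-square difference from those 3, over log2 CPM of all tested genes, was 0.501 to 0.636, against 0.432 to 0.451 among the 3. Fitted values for the members that rest on these libraries are therefore mostly given with and without them. The 8 hepatocyte markers summed to at least 103341 CPM in every group, and no marker list for hepatocytes or other liver and blood cells had a marker at 0 in every library. Some markers were barely present. The 6 platelet markers summed to 4.15 to 6.99 CPM, and *Gp1bb* among them had counts only in ESR1KO male 2.

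Per kilobase of exon, the members spanned a wide range of levels. *Fgb*, which encodes the beta chain of fibrinogen, was the highest, with a median over the 15 libraries of 1133 CPM per kb, and did not overlap the next gene in any library. *F2* (prothrombin) followed at 439 CPM per kb, *Serpinc1* (antithrombin) at 245, *Proc* (protein C) at 187, *F10* (factor X) at 160 and *F5* (factor V) at 102. The lowest were *F9* (factor IX) at 57.5 CPM per kb, *F7* (factor VII) at 50.3, *F11* (factor XI) at 43.4 and *Pros1* (protein S, which other tissues also make) at 21.0. From *F2* downward, the ranges of neighbours in this order overlapped over the 15 libraries.

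**Figure D1:**
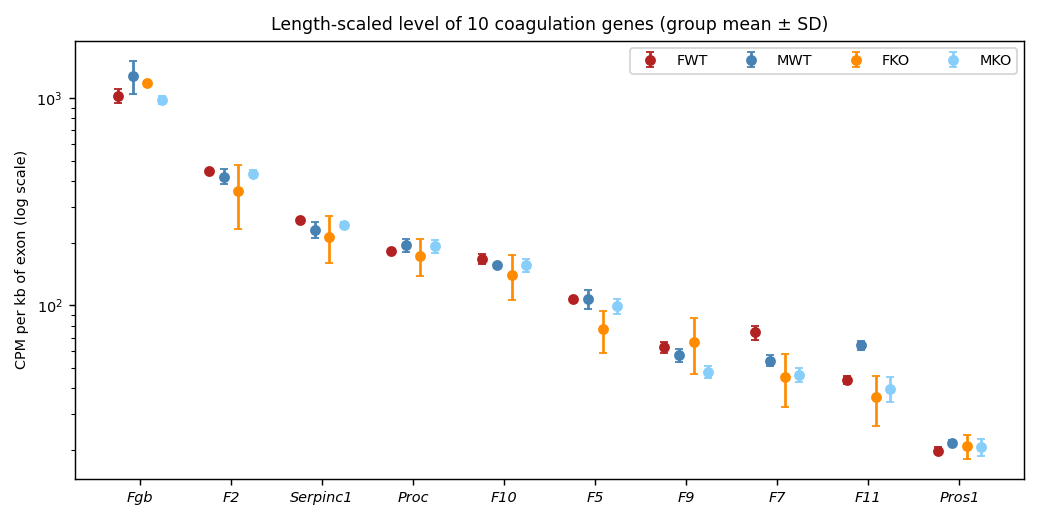
Group mean ± SD of CPM per kb of exon (log axis) for each member in FWT (n = 3), MWT (n = 3), FKO (n = 5) and MKO (n = 4). *Fgb* stood highest, at a median of 1133 CPM per kb, and *Pros1* lowest, at 21.0.

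A change was called where edgeR's quasi-likelihood test, fitted to all 15 libraries and adjusted by Benjamini-Hochberg over the 17655 genes, gave an adjusted p under 0.05. A single member met this in any contrast, *F7* in ESR1KO against WT females. No member also reached a log2 fold change of 1.5 in size. The study set that minimum, with P under 0.05, for sex-biased genes in its earlier RNA-seq data, and it is applied here to all contrasts. With an adjusted p under 0.05, 1.81% and 0.142% of tested genes reached it in the WT and ESR1KO sex contrasts. With loss of *Esr1*, 1.2% reached it in females and 0.578% in males, and 1.09% did in the difference between the genotype effects. In bulk liver, fewer cells of a type and less RNA per cell cannot be told apart.

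*F7*, whose product starts the tissue factor pathway, was highest in WT females and lower in the other 3 groups. Its levels were 126, 146 and 141 CPM in WT females and 103, 105 and 93.5 CPM in WT males. They were 53.2, 64.4, 93.5, 105 and 106 CPM in ESR1KO females and 82.2, 91.2, 78.9 and 92.1 CPM in ESR1KO males. Every WT female thus lay above every library of the other groups, and WT males lay above ESR1KO males. In females, ESR1KO lowered *F7* by a log2 fold change of -0.71 ± 0.18 (SE, edgeR adjusted p = 0.0285), 1 of 10 members called lower where 2.57% of all tested genes were. The call was kept by DESeq2's Wald test (adjusted p = 0.00537) and without ESR1KO females 1 and 2, at a smaller log2 fold change of -0.44 ± 0.09 (edgeR adjusted p = 0.0124). Leaving out WT female 1, 2 or 3 or ESR1KO female 2 alone ended it, with edgeR adjusted p of 0.0591, 0.106, 0.110 and 0.0652, as did a fit of the females alone (0.133, with 2.66% of tested genes called).

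The sex difference of *F7* in WT mice was 0.46 ± 0.20 on the log2 scale, higher in females (edgeR adjusted p = 0.251). Without ESR1KO females 1 and 2 the same estimate had an SE of 0.09 and an adjusted p of 0.00574, since the spread is shared between groups, and a fit of the WT libraries alone gave 0.0167 (7.55% of tested genes called). In ESR1KO mice the sexes overlapped, with a log2 difference of -0.03 ± 0.17. The 3 ESR1KO females that remain without females 1 and 2 lay above all 4 ESR1KO males, at 0.24 ± 0.08 (adjusted p = 0.285), a lack of overlap that 5.79% of tested genes showed in this direction. In males, the log2 fold change with loss of *Esr1* was -0.22 ± 0.19 (adjusted p = 0.713). The genotype effects in females and males differed by -0.49 ± 0.26 (adjusted p = 0.403), so a difference between the sexes in the response of *F7* did not pass the test.

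*F7* lies at chr8:13026034-13035809 (GRCm38, plus strand) and *F10*, the gene of the protease that factor VII activates, at chr8:13037308-13056676 on the same strand. *F10* was at 438, 487 and 450 CPM in WT females and 440, 427 and 417 CPM in WT males. It was at 240, 337, 450, 459 and 434 CPM in ESR1KO females and 411, 466, 392 and 438 CPM in ESR1KO males. Only ESR1KO females 1 and 2 lay outside the range of the rest. Its log2 fold change in females was -0.26 ± 0.16 (edgeR adjusted p = 0.378), and -0.04 without those libraries. *Proz*, which encodes protein Z and lies 4238 bp beyond *F10*, had a log2 fold change of -0.23 in females (adjusted p = 0.295). It was at 296 and 330 CPM in ESR1KO females 1 and 2, 415 to 447 CPM in females 3 to 5 and 447 to 457 CPM in WT females. Across the 15 libraries, the 5 genes with centred log2 CPM profiles nearest to that of *F7* were *Ndrg2*, *Pla1a*, *Ahsg*, *Ces1c* and *Cpn2*. Their root-mean-square differences were 0.119 to 0.133, where the profile of *F7* itself had a root-mean-square of 0.374 about its mean. The ranking includes ESR1KO females 1 and 2 and was not repeated without them. Against the other ESR1KO females, these libraries differed by -0.79 on the log2 scale for *F7* and by -0.73 for *Ahsg*. Shared regulation of these genes with *F7* was not tested.

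**Figure D2:**
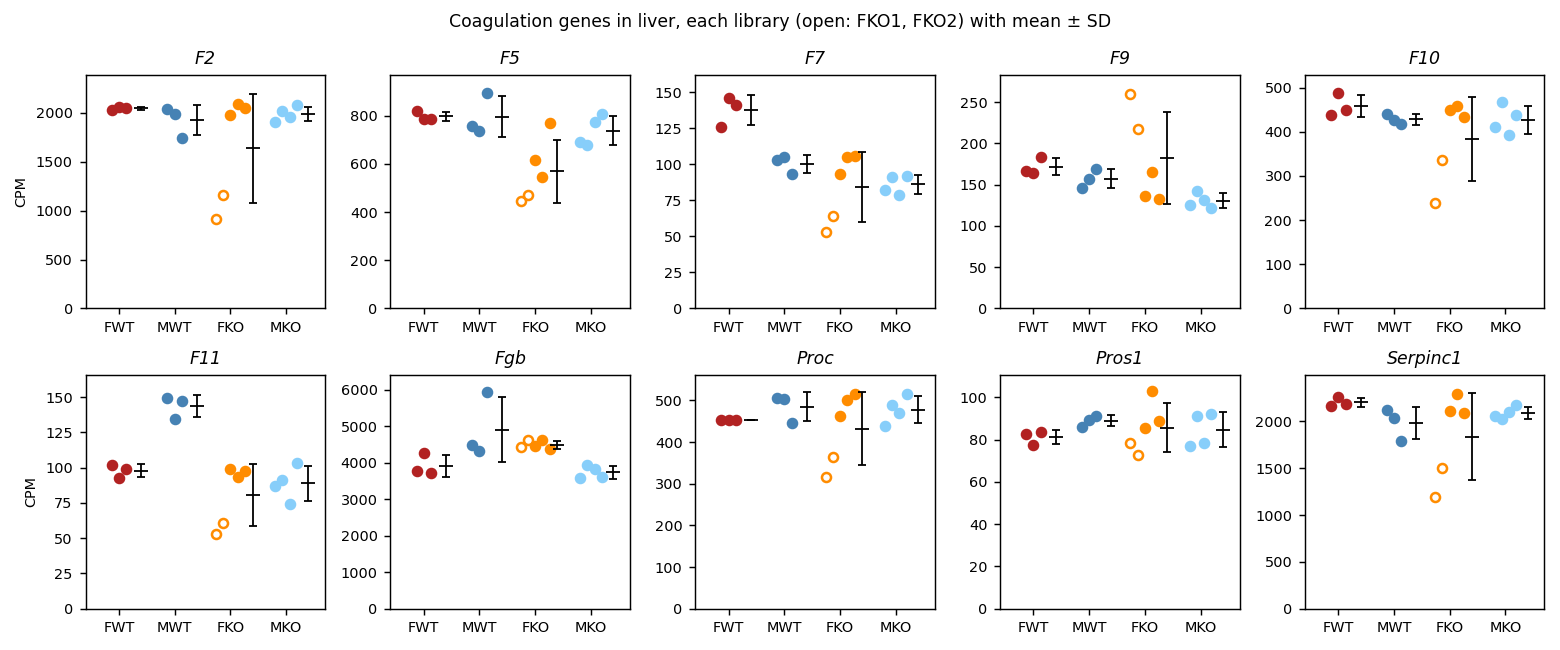
CPM of the 10 members in each library, by group, with the group mean ± SD beside the points. Open circles are ESR1KO females 1 and 2, which lay low for *F2*, *F7*, *F10*, *F11*, *Proc* and *Serpinc1* and high for *F9*. WT females stood highest for *F7* and WT males highest for *F11*.

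*F11* was highest in WT males, which lay above every other library. Factor XI is activated by the contact system and by thrombin and then activates factor IX. Its gene lies at chr8:45241174-45262031 (GRCm38, minus strand). *F11* was at 149, 135 and 147 CPM in WT males and 102, 93.0 and 99.0 CPM in WT females. It was at 86.7, 91.5, 73.9 and 103 CPM in ESR1KO males and 53.1, 60.5, 99.0, 93.4 and 97.3 CPM in ESR1KO females. No library of the other 3 groups reached the lowest WT male.

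The log2 fold change of *F11* with loss of *Esr1* in males was -0.69 ± 0.19, which missed the threshold (edgeR adjusted p = 0.0827). It passed with DESeq2 (adjusted p = 0.0203), in the male libraries alone (0.0109, with 2.51% of tested genes called) and without ESR1KO females 1 and 2 (-0.70 ± 0.09, adjusted p = 0.00187). The WT sex difference was -0.55 ± 0.20, lower in females (edgeR adjusted p = 0.148), and passed in the WT libraries alone (0.00468) and without ESR1KO females 1 and 2 (0.00341). Leaving out ESR1KO female 1 alone brought both past the threshold, at 0.0205 and 0.0478. In ESR1KO mice the sexes overlapped (-0.14 ± 0.16, adjusted p = 0.677). The genotype effects of the sexes differed by 0.42 ± 0.26 (adjusted p = 0.472) in all libraries and by 0.68 ± 0.14 (adjusted p = 0.0177) without ESR1KO females 1 and 2. In that fit, the genotype effect in females was -0.02 ± 0.10.

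Of the tested protein-coding genes near *F11*, *Klkb1* (plasma prekallikrein, the contact protease) lies 4658 bp away and *Cyp4v3*, a cytochrome P450 gene, 42913 bp away. *Cyp4v3* was lower in WT females than in WT males by a log2 difference of -0.86 (edgeR adjusted p = 0.00972) and had a log2 fold change of -0.65 with loss of *Esr1* in males (adjusted p = 0.0753). *Klkb1* was at 237 to 239 CPM in WT females and 270 to 288 CPM in WT males, with log2 differences of -0.24 (adjusted p = 0.190) and -0.20 (0.404) in the same contrasts.

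*F2*, *F5* and *F9* are the remaining procoagulant proteases and cofactor. *F2* was at 2031, 2058 and 2053 CPM in WT females and 2043, 1992 and 1747 CPM in WT males. It was at 914, 1156, 1974, 2091 and 2046 CPM in ESR1KO females and 1906, 2016, 1953 and 2079 CPM in ESR1KO males. Only ESR1KO females 1 and 2 fell far from the rest, and the log2 fold change in females of -0.32 ± 0.22 (edgeR adjusted p = 0.397) became -0.01 without them.

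*F5* was at 820, 785 and 787 CPM in WT females, against 445, 473, 617, 545 and 768 CPM in ESR1KO females. Every ESR1KO female lay below every WT female, ESR1KO female 5 only just. The log2 fold change was -0.49 ± 0.15 (edgeR adjusted p = 0.0718), and -0.31 ± 0.12 (adjusted p = 0.175) without ESR1KO females 1 and 2. DESeq2 called it (adjusted p = 0.0255). In males, *F5* was at 759, 738 and 894 CPM in WT and 693, 680, 774 and 807 CPM in ESR1KO, with overlapping groups (-0.11 ± 0.16, adjusted p = 0.861).

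*F9*, on the X chromosome, was the member that went up in ESR1KO females 1 and 2. They had 261 and 218 CPM, against 136, 165 and 133 CPM in ESR1KO females 3 to 5 and 167, 165 and 183 CPM in WT females. The log2 fold change in females was accordingly 0.09 ± 0.18 in all libraries and -0.25 ± 0.10 without those libraries (edgeR adjusted p = 0.807 and 0.178). In males, all 4 ESR1KO libraries (126, 143, 131 and 122 CPM) lay below the WT libraries (146, 157 and 169 CPM), at -0.27 ± 0.19 (adjusted p = 0.632).

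ESR1KO females 1 and 2 together were lower than ESR1KO females 3 to 5 in 8 members, by up to -0.99 on the log2 scale for *F2*, and higher for *F9* (0.73) and *Fgb* (0.015). In 7 of the 10 members the difference was at least 0.5 in size, where 26.1% of all tested genes were. Over all tested genes the median difference moved with GC content, from 0.45 in the quintile of lowest GC to -0.27 in that of highest GC. *F9* has the lowest GC content of the members, 39.03%. Of the 10 members, 9 lay below the median of their GC quintile, which by definition splits the genes of a quintile evenly. The part of RNA quality or GC content in these differences was not tested beyond a fit with a GC offset. In that fit *F7* remained called in females (-0.63 ± 0.13, edgeR adjusted p = 0.0103) and no other member was called in any contrast, where 6.85% of tested genes were called in females, 2% in males, 6.54% and 0.527% between WT and between ESR1KO females and males, and 2.23% in the difference. The 8 hepatocyte markers summed to 116377 and 128680 CPM in ESR1KO females 1 and 2 and to 106830 to 116980 CPM in ESR1KO females 3 to 5. Most of each sum was *Alb*, at 79573 and 87918 CPM in females 1 and 2 and 63615 to 74199 CPM in females 3 to 5. The markers were mixed on the log2 scale. In females 1 and 2, *Tat* (0.84), *Alb* (0.29), *Apob* (0.12) and *Ttr* (0.023) were higher. *Trf* (-0.94), *Ahsg* (-0.73), *Apoa1* (-0.32) and *Cps1* (-0.25) were lower there.

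**Figure D3:**
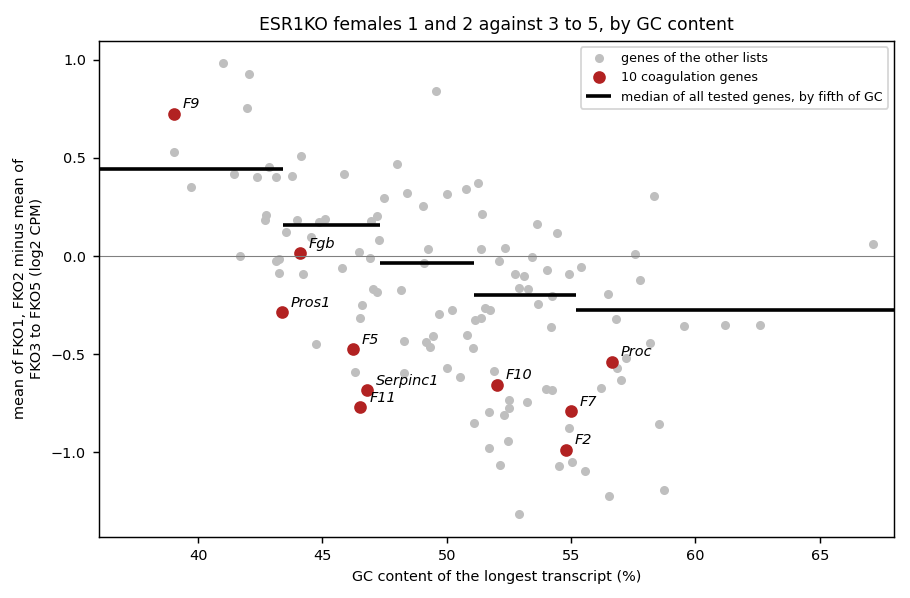
Difference in mean log2 CPM between ESR1KO females 1 and 2 and ESR1KO females 3 to 5 (vertical axis) against transcript GC content (horizontal axis, %). Red points are the members, grey points the genes of the other lists and bars the median of all tested genes in each quintile of GC, which falls from 0.45 to -0.27.

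*Fgb* was the member whose level in ESR1KO females 1 and 2 lay nearest to that in females 3 to 5. It was at 3765, 4269 and 3728 CPM in WT females and 4486, 4317 and 5932 CPM in WT males. It was at 4442, 4619, 4449, 4621 and 4380 CPM in ESR1KO females and 3583, 3932, 3826 and 3609 CPM in ESR1KO males. In WT mice males lay above females without overlap, and in ESR1KO mice females lay above males without overlap. None of the 4 contrasts passed: the log2 differences were -0.33 ± 0.14 between WT females and males, 0.27 ± 0.12 between ESR1KO females and males, 0.20 ± 0.13 for ESR1KO against WT in females and -0.39 ± 0.13 in males (edgeR adjusted p = 0.244, 0.254, 0.373 and 0.189).

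The genotype effects of the sexes on *Fgb* differed by 0.59 ± 0.18 (edgeR adjusted p = 0.136). DESeq2 called this difference (0.60, adjusted p = 0.00319) and the effect in males (-0.40, adjusted p = 0.0120). WT male 3 held the highest *Fgb*. Without it the edgeR difference fell to 0.44 (adjusted p = 0.286), the effect in males to -0.24 and the WT sex difference to -0.17. Without ESR1KO females 1 and 2 the difference between the genotype effects on *Fgb* was 0.59 ± 0.16 (edgeR adjusted p = 0.0917), and the effects were 0.19 ± 0.12 in females and -0.40 ± 0.11 in males (adjusted p = 0.399 and 0.0784).

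The other fibrinogen chains lie beside *Fgb* on chromosome 3, *Fga* at 6514 bp and *Fgg* at 25092 bp. *Fga* was at 3756, 4278 and 3986 CPM in WT females, 4775, 4593 and 6609 CPM in WT males and 3720 to 4103 CPM in ESR1KO males. *Fgg* was at 2588, 2933 and 2683 CPM in WT females, 3225, 3083 and 4134 CPM in WT males, 3119 to 3746 CPM in ESR1KO females and 2515 to 2754 CPM in ESR1KO males. Mean *Fga* was 5325 CPM in WT males, 4071 in ESR1KO females, 4006 in WT females and 3928 in ESR1KO males. The group means of *Fgb* and *Fgg* had the same order. *Fga* was low in ESR1KO females 1 and 2 (2977 and 3678 CPM), so for *Fga* ESR1KO and WT females overlapped. For *Fgg* the genotype effects differed by 0.70 ± 0.18 (edgeR adjusted p = 0.0685) and for *Fga* by 0.46 ± 0.24 (0.384). Without ESR1KO females 1 and 2 these differences were 0.61 ± 0.15 for *Fgg* and 0.63 ± 0.17 for *Fga* (adjusted p = 0.0539 and 0.0911).

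WT male 3, the library with the highest *Fga*, *Fgb* and *Fgg*, also held the highest *Saa1*, *Hp* and *Hpx*, which encode plasma proteins of the acute phase response. *Saa1* was at 182 CPM there, against 74.1 and 24.3 CPM in the other WT males and 9.01 to 16.7 CPM in WT females. *Hp* (haptoglobin) was at 3650 CPM against 2648 and 2096 CPM, and *Hpx* (hemopexin) at 5579 CPM against 3895 and 3236 CPM. Of the 19 acute phase genes, 3 passed in the WT sex contrast, with *Saa1* (-2.78, edgeR adjusted p = 0.00216) and *Saa2* (-2.40, 0.0228) lower and *Orm3* (3.08, 0.00141) higher in females. The sexes overlapped for *Saa2*, at 25.3, 8.70 and 102 CPM in WT males 1, 2 and 3 and 5.44 to 10.4 CPM in WT females. *Orm3* was low and varied widely, at 1.15, 4.40 and 8.18 CPM in WT females and 0.349 to 0.692 CPM in WT males. *Orm3* fell in ESR1KO females (-2.89, adjusted p = 0.000623). In ESR1KO against WT males none of the 19 passed, 18 had estimates below 0 and the median was -0.43, beside -0.0011 over all tested genes. The part of an acute phase response in the fibrinogen values was not tested.

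**Figure D4:**
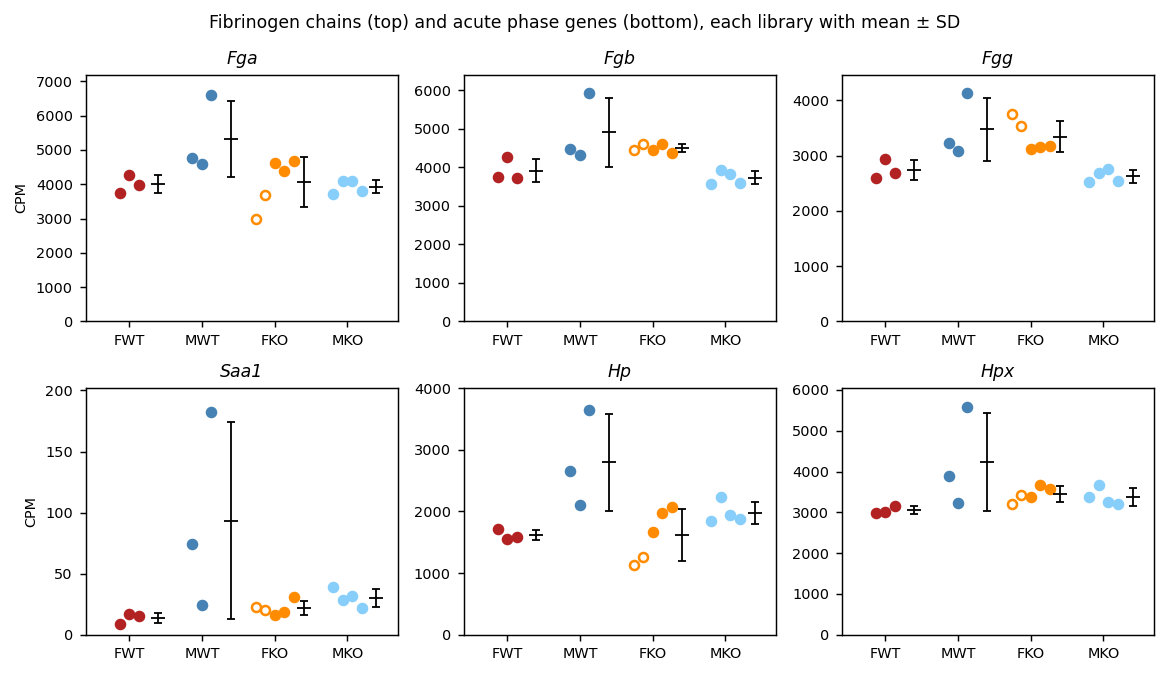
CPM of the 3 fibrinogen chains and of *Saa1*, *Hp* and *Hpx* in each library, with the group mean ± SD beside the points. The highest point in every panel is WT male 3, and open circles are ESR1KO females 1 and 2. Most of the other listed acute phase genes were not highest in WT male 3.

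The anticoagulant members passed no contrast. *Serpinc1*, the gene of antithrombin, was at 2164, 2259 and 2184 CPM in WT females and 2116, 2039 and 1786 CPM in WT males. It was at 1198, 1506, 2108, 2289 and 2084 CPM in ESR1KO females and 2052, 2023, 2098 and 2174 CPM in ESR1KO males. WT females lay above WT males without overlap, by 0.15 ± 0.19 on the log2 scale (edgeR adjusted p = 0.744) and by 0.15 ± 0.09 without ESR1KO females 1 and 2 (adjusted p = 0.316). In females, the genotype effect of -0.26 ± 0.17 (adjusted p = 0.386) became -0.03 without ESR1KO females 1 and 2.

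*Proc*, the gene of protein C, was at 452 to 454 CPM in WT females, 446 to 506 CPM in WT males and 437 to 515 CPM in ESR1KO males. ESR1KO females 1 and 2 were at 316 and 364 CPM and the other 3 at 463, 500 and 514 CPM. Its largest log2 difference in size over the 4 contrasts was -0.15, between ESR1KO females and males. *Pros1*, the gene of protein S, was the lowest member per kilobase, with means of 81.4 ± 3.27 CPM in WT females (SD, n = 3), 88.9 ± 2.60 in WT males (n = 3), 85.7 ± 11.5 in ESR1KO females (n = 5) and 84.7 ± 8.30 in ESR1KO males (n = 4). WT females lay below WT males without overlap, by a log2 difference of -0.13 ± 0.12 (edgeR adjusted p = 0.648). In the fit without ESR1KO females 1 and 2 the adjusted p was 0.436, and the genotype effect on *Pros1* in females was 0.18 ± 0.09 (adjusted p = 0.291).

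Over the 10 members, the WT sex contrast gave 0 calls in edgeR, where 4.87% of all tested genes were called, and 0 in DESeq2 (6.04%). At an unadjusted p under 0.05 it gave 3, beside 17.3% of tested genes. Groups did not overlap for 5 of 10 members, beside 30.1%. Between ESR1KO females and males 0 members were called by edgeR (0.272% of tested genes) or DESeq2 (2.95%), 3 had an unadjusted p under 0.05 (17.5%), and 1 of 10 did not overlap (5.22%).

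Loss of *Esr1* in females gave 1 edgeR call (5.71% of tested genes), 2 calls in DESeq2 (*F5* and *F7*, 8.88%), 2 members at an unadjusted p under 0.05 (22.5%) and 3 of 10 without overlap (15.6%). In males it gave 0 calls in edgeR (1.42%), 2 in DESeq2 (*F11* and *Fgb*, 2.73%) and 2 at an unadjusted p under 0.05 (11.9%). Groups did not overlap for 4 of 10 members in males, beside 15.9% of tested genes, and all 4 were lower, beside 7.35%. The difference between the genotype effects gave 0 calls in edgeR (1.94%), 1 in DESeq2 (*Fgb*, 3.7%) and 1 at an unadjusted p under 0.05 (14.3%). All contrasts share libraries with others.

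The members' median log2 fold change was 0.044 between WT females and males, -0.14 between ESR1KO females and males, -0.26 for loss of *Esr1* in females and -0.09 in males, beside 0.014, 0.011, -0.0013 and -0.0011 over all tested genes. Without ESR1KO females 1 and 2, the medians in the ESR1KO sex contrast and in females became 0.09 and -0.02. In that fit *F7* (higher) and *F11* (lower) were called in the WT sex contrast, beside 8.99% of 17504 tested genes, *F7* in females beside 4.47%, *F11* in males beside 2.73%, *F11* in the difference beside 2.39% and no member between ESR1KO females and males beside 0.171%.

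**Figure D5:**
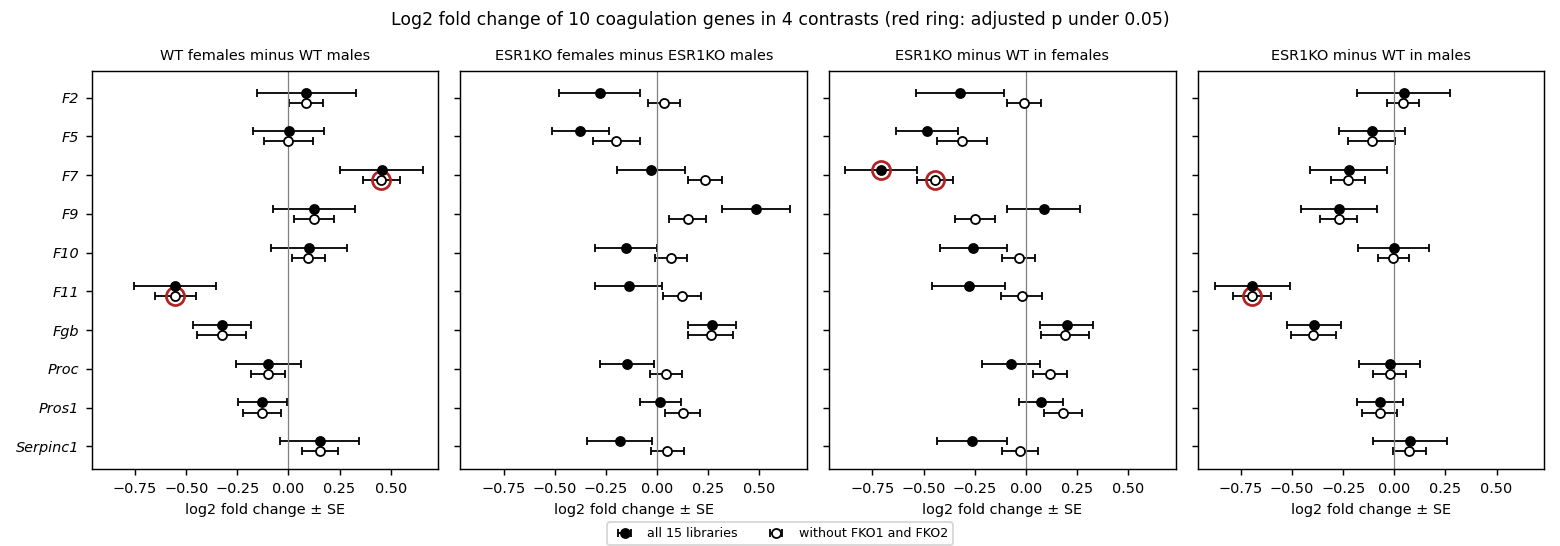
Log2 fold change ± SE (edgeR) of each member in the 4 contrasts, in all 15 libraries (filled) and without ESR1KO females 1 and 2 (open). Red rings mark an adjusted p under 0.05, which *F7* in females reached in both fits, and *F7* and *F11* in WT mice and *F11* in males without those libraries.

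Among the other genes of the pathway, the receptors held the clearest change. *F2r*, which encodes the thrombin receptor PAR-1, was at 23.3, 23.4 and 21.0 CPM in WT females and 83.5, 76.3 and 71.9 CPM in WT males. It was at 39.1, 43.8, 55.4, 47.8 and 51.7 CPM in ESR1KO females and 55.7, 59.7, 52.9 and 57.4 CPM in ESR1KO males. ESR1KO mice of both sexes lay between WT females and WT males. *F2r* was lower in WT females than in WT males (-1.77 ± 0.12, edgeR adjusted p = 4.44e-08), rose with loss of *Esr1* in females (1.07 ± 0.11, adjusted p = 1.15e-05), and differed between the sexes in its genotype effect (1.52 ± 0.15, adjusted p = 1.70e-05). Its log2 fold change in males was -0.45 ± 0.11 (adjusted p = 0.0522), which passed without ESR1KO females 1 and 2 (adjusted p = 0.00679). PAR-1 is made by endothelial and other cells. The 6 sinusoidal endothelial markers gave 0 edgeR calls in the WT sex contrast and summed to 432 to 446 CPM in WT females and 298 to 425 CPM in WT males, and their part in the *F2r* result was not tested.

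*Mertk*, the gene of a receptor for protein S, was higher in WT females (48.8, 45.5 and 47.4 CPM) than in WT males (27.2, 30.9 and 39.1 CPM), at 0.54 ± 0.13 (edgeR adjusted p = 0.0177). It fell in ESR1KO females (-0.45 ± 0.11, adjusted p = 0.0295), and the estimate without ESR1KO females 1 and 2 was -0.38 ± 0.11, which missed the threshold (adjusted p = 0.0700). Macrophages also make *Mertk*, and the 6 Kupffer cell and macrophage markers summed to 358 to 436 CPM in WT females and 339 to 360 CPM in WT males. *Tyro3* and *Axl*, of the same receptor family, passed no contrast. The other 3 listed receptors, *F2rl1*, *F2rl2* and *F2rl3*, did not pass the filter on low counts.

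Of the 8 genes of fibrinolysis, the breakdown of fibrin, 2 fell in ESR1KO females and none passed in the other contrasts. *Plg*, the gene of plasminogen, fell by 0.67 on the log2 scale (SE 0.17, edgeR adjusted p = 0.0309), from 2273, 2181 and 2251 CPM in WT females to 936, 1166, 1734, 1500 and 1690 CPM. It was lower in all 5 ESR1KO females, and without females 1 and 2 it remained called (-0.45 ± 0.10, adjusted p = 0.0257). *Hrg*, the gene of histidine-rich glycoprotein, which binds plasminogen and heparin, changed by -0.58 ± 0.16 (adjusted p = 0.0402), and the estimate without those libraries was -0.42 ± 0.14, which missed the threshold (adjusted p = 0.108). *Plau*, the gene of urokinase, had a log2 fold change of 0.70 ± 0.23 in females (adjusted p = 0.0874) and was called only in the fit without ESR1KO females 1 and 2 (0.90 ± 0.22, adjusted p = 0.0351).

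No gene passed in the 5 contrasts among the 5 of fibrin formation and crosslinking, the 4 of the contact system, the 4 initiators and carriers, the 5 of the vitamin K cycle and factor secretion, the 7 tested of the 8 other anticoagulants or the 11 liver transcription factors. Median log2 fold changes over the pathway and acute phase lists in the 4 contrasts ran from -0.43 for acute phase genes and -0.41 for fibrin genes, both with loss of *Esr1* in males, to 0.33 for fibrinolysis genes in females, where 5 of the 8 estimates lay above 0 although both calls were lower. Without ESR1KO females 1 and 2, *Kng2* (a kininogen of the contact system) was called higher in WT females than in WT males (0.31 ± 0.08, edgeR adjusted p = 0.0288). With the GC offset, *Hnf4a* (a nuclear receptor of hepatocytes) was called lower in ESR1KO than in WT males (-0.37 ± 0.09, edgeR adjusted p = 0.0491).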

How the data were processed

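RNA from mouse liver was sequenced in 15 libraries of 4 groups, taken from the sample labels. The deposited table holds whole-number counts for 55573 genes. Per the labels, the authors used Trimmomatic for trimming, STAR for alignment (GRCm38) and HTSeq for counting, and the values were not normalized. Replicates were separate mice, and all value columns belonged to a sample (0 unused). Totals of 27799061 to 78624766 counts limit the precision of low genes.

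Counts were filtered by filterByExpr, scaled by TMM and tested with edgeR 4.0.16 in R 4.3.3 (quasi-likelihood F test, all 15 libraries, Benjamini-Hochberg over 17655 genes). DESeq2 1.42.0, other scalings and filters, fits of the compared groups alone, a replicate block and leaving out each library were alternatives. Leaving out ESR1KO females 1 and 2 together and a GC offset were added after seeing the data. Tested on simulated counts, this fit found most of the larger planted changes and a minority of the smaller. Those counts held no shift like that of ESR1KO females 1 and 2, so power in the present data was not measured. CPM are TMM-scaled. Exon lengths, GC content and positions came from GENCODE M21.

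The members and gene lists were chosen with earlier results of these data known. All 10 members are named, with at most 4 genes per other list by lowest adjusted p and neighbours within 100 kb. Genes named as not tested, or for a library that stood apart, were added after their values were seen. Replicate numbers did not pair the samples: only 1 of 13 same-number correlations exceeded 0.1 (-0.19 to 0.14).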

Additional observations from a re-analysis of the deposited data

Results flagged for a closer look

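*Fgb* is given a closer look because every ESR1KO female lay above every WT female while every ESR1KO male lay below every WT male. The difference between these genotype effects was 0.59 on the log2 scale, and the edgeR test of it did not pass (adjusted p = 0.136), whereas DESeq2's did (adjusted p = 0.00319). Both tests use the values that flagged *Fgb*, so they are not separate evidence. The share of all tested genes with this opposed pattern was not counted. Over the alternatives that left out a single library, the edgeR adjusted p ran from 0.106 to 0.292. By Dixon's test, no single library lay far from the rest of its group in the 20 groups of ESR1KO females and males tested. The test looks for a single distant library, so it could not flag the ESR1KO females that stood apart as a pair. The WT groups were not tested, so a distant WT library was not looked for.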

How the results depend on the processing

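Under 2 scalings and the stricter filter no count of called members moved. The counts of called members that moved were, in the WT sex contrast (0), 2 with only the groups compared, 2 without ESR1KO females 1 and 2, 3 at an unadjusted p and 0 to 1 with a library left out. In the ESR1KO sex contrast (0), 3 passed at an unadjusted p. In females (1), 2 passed with DESeq2 and at an unadjusted p, 0 with only the groups compared and with a log2 fold change of at least 1.5, and 0 to 2 with a library left out. In males (0), 2 passed with DESeq2 and at an unadjusted p, 1 without a filter, with only the groups compared and without ESR1KO females 1 and 2, and 0 to 1 with a library left out. For the difference (0), 1 passed with DESeq2, without ESR1KO females 1 and 2 and at an unadjusted p. With the replicate number as a block, 2 members (*F5* and *F7*) passed in females and 0 in the other contrasts.

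The sign of a member's estimate turned in 15 of 100 values without ESR1KO females 1 and 2 or with the GC offset, in 9 of 340 under the other alternatives and in 22 of 750 with 1 library left out. In 9 of the 15, and in 0 of the others, the value moved by more than the SE of its estimate in all libraries. Without ESR1KO females 1 and 2, the ESR1KO sex difference became 0.035 for *F2*, 0.24 for *F7*, 0.068 for *F10*, 0.12 for *F11*, 0.044 for *Proc* and 0.050 for *Serpinc1*, and the effect in females became -0.25 for *F9* and 0.12 for *Proc*. With the GC offset it was -0.12 for *F9*. The cause was not tested. Depth did not limit the members, whose lowest count in a library was 2125.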
